A study of Mus musculus with 12 samples.

Results

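The Hox genes of clusters A, B, C and D were examined in newborn mouse lung. All probes of the bead signal table whose annotated symbol was *Hoxa*, *Hoxb*, *Hoxc* or *Hoxd* followed by a number were taken, which gave 38 of 19057 genes and 57 of 45281 probes. Of these genes, 25 had a single probe and 13 had several. RNA was prepared from lungs of 6 newborn mice labelled as cavin-1 KO, of which 5 had *Cavin1* signals far below WT, and of 6 WT mice. Cavin-1 is a protein that coats the flask-shaped membrane pits called caveolae. Each lung was hybridized to its own Illumina MouseWG-6 v2.0 array. The mice were labelled C57/bl6 and newborn, 0 to 6 h old, whereas the methods give a later upper age. By the methods, KO mice were −/− for *Cavin1*, made with a targeting vector that held a lacZ/neo cassette. WT mice were +/+ littermates. The RNA came from lung tissue without sorting, so fewer cells of a type and less RNA per cell cannot be told apart.

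The *Cavin1* transcript was read in every library as a check of the labels. Its probe ILMN_1243992 gave log2 signals of 8.47, 1.67, 1.84, 2.89, 1.81 and 2.23 on the KO arrays 157, 186, 192, 235, 237 and 238, and of 8.22, 8.22, 8.44, 8.59, 8.92 and 8.73 on the WT arrays 142, 177, 179, 182, 187 and 188. Its probe ILMN_2498471 gave 11.66, 3.81, 3.60, 5.37, 5.09 and 4.87 on the KO arrays and 11.79, 11.57, 11.64, 11.62, 11.72 and 11.65 on the WT arrays. ILMN_1243992 had a mean log2 signal of 8.52 ± 0.28 in WT lungs (mean ± SD, n = 6) and of 2.09 ± 0.49 in 5 of the KO lungs, and ILMN_2498471 one of 11.66 ± 0.08 and 4.55 ± 0.79. The library labelled KO 157 was as high as WT lungs on both probes. The title and the description of the library labelled KO 157 also carry different animal numbers, so the difference of each Hox gene detected on all arrays is also given without it. Markers of alveolar epithelium were detected on all 12 arrays for 7 of 7 genes, whereas 5 of 6 kidney markers were detected on none.

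Hox genes encode homeodomain transcription factors that give cells along the head-to-tail axis their positional identity. They lie side by side in clusters, and their order on the chromosome mirrors the order in which they are switched on in time and along the body, with low-numbered genes at the 3′ end acting towards the head and high-numbered genes at the 5′ end acting towards the tail. Genes with the same number in different clusters are paralogs. In mice, paralog group 5 is known for its part in the lung, where *Hoxa5*, *Hoxb5* and *Hoxc5* act in the mesenchyme and loss of *Hoxa5* disturbs the trachea and lung and can be lethal at birth.

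The upstream sequences of *Hoxa5* and *Hoxb4* are shown first, because these members had the smallest p-values between KO and WT lungs. Each is the stretch of 250 bases that ends just before the annotated RefSeq start in build GRCm38.p6, written 5′ to 3′ on the strand of the gene. Capitals mark the matches to the motifs that were searched. The *Hoxa5* stretch lies at chr6:52204588-52204837 on the minus strand, and the *Hoxb4* stretch lies at chr11:96318017-96318266 on the plus strand.
Hoxa5: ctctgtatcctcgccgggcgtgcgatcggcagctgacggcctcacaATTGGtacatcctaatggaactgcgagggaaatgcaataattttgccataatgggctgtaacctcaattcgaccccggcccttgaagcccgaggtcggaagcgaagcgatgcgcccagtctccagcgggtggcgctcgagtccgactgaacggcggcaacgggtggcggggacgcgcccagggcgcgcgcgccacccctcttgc
Hoxb4: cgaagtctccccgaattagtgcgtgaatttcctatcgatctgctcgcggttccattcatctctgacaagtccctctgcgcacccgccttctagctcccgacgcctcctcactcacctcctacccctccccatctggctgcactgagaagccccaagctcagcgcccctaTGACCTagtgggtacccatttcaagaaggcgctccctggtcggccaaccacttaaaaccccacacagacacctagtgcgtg
The letters searched on both strands were CCAAT, the CCAAT box; TATAAA, the TATA box; GGGCGG, the GC box; AGGTCA, a hexamer bound by nuclear receptors that include the retinoic acid receptors; TGATNNAT, a form of the joint site of PBX and HOX proteins; and TAATTA, a homeodomain core. *Hoxa5* held 1 match, to the CCAAT box in its reverse form, beginning 204 bases before the start. *Hoxb4* held 1 match, to the nuclear receptor hexamer in its reverse form, beginning 81 bases before the start. Windows of this kind were given for 22 of the 38 members, with 24 windows in all. The CCAAT box stood in 14 of the 24 Hox windows, against 33.8% of 32851 windows of all genes, and the nuclear receptor hexamer stood in 6 of 24, against 14%. The GC box was in 10 of 24 against 32.7%, the TATA box in 4 against 12.4%, the PBX and HOX form in 4 against 7.7% and the homeodomain core in 2 against 4.8%. The median ratio of observed to expected CpG was 0.721 over the Hox windows and 0.374 over all windows. Among the Hox windows it was 0.490 for the 7 whose gene was detected on all 12 arrays and 0.755 for the 17 others. The ratios ran from 0.386 to 1.11 in the 7 and from 0.160 to 0.974 in the 17, so they overlapped widely. These matches and ratios are descriptions of the letters in the windows.

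A transcript was called detected on an array when its detection p-value, which ranks a probe against the negative control beads of that array, was under 0.05 for at least 1 probe of the gene. Signals of different probes cannot be set against each other, so the code of expressed Hox genes is given by detection. Of the 38 Hox genes, 13 were detected on all 12 arrays, 8 on some and 17 on none. The 13 made up 34.2% of the Hox genes, against 53.3% of all 19057 genes. Leaving out the library labelled KO 157, the same 13 were detected on all other arrays. At a stricter detection p of 0.01, 12 remained and *Hoxd9* was lost. At 0.001, 8 remained, and *Hoxa13*, *Hoxb3*, *Hoxb6*, *Hoxd8* and *Hoxd9* were lost.

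Clusters A and B supplied most of the code. In cluster A, *Hoxa2*, *Hoxa4*, *Hoxa5*, *Hoxa7* and *Hoxa13* were detected on all 12 arrays, *Hoxa3* on 4, and *Hoxa6*, *Hoxa9*, *Hoxa10* and *Hoxa11* on none. Cluster B gave an unbroken run, with *Hoxb2*, *Hoxb3*, *Hoxb4*, *Hoxb5*, *Hoxb6* and *Hoxb7* all detected on 12 arrays, while *Hoxb1* at the 3′ end and *Hoxb8*, *Hoxb9* and *Hoxb13* towards the 5′ end were detected on none. No gene of cluster C was detected on every array. *Hoxc6* was detected on 7 arrays, *Hoxc10* on 4, *Hoxc13* on 2, *Hoxc4* on 1, and *Hoxc5*, *Hoxc8*, *Hoxc9*, *Hoxc11* and *Hoxc12* on none. In cluster D, *Hoxd8* and *Hoxd9* were detected on all 12, *Hoxd10* on 6, *Hoxd11* on 2 and *Hoxd4* on 1. *Hoxd1*, *Hoxd3*, *Hoxd12* and *Hoxd13* were detected on none.

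**Figure D1:**
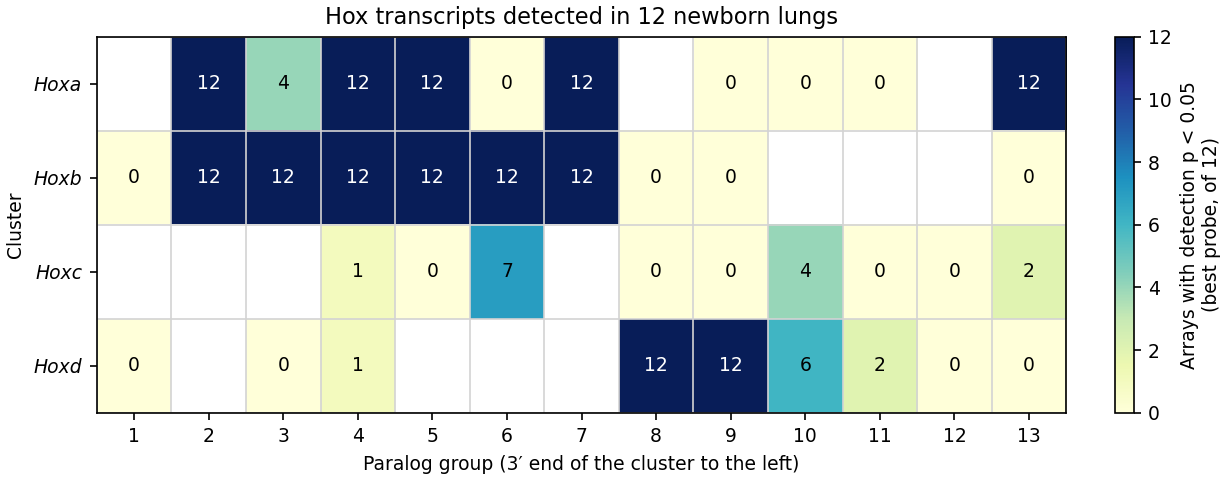
Number of arrays, of 12, on which each Hox gene had a detection p under 0.05 for its best probe, by cluster (rows) and paralog group (columns, 3′ end to the left); cells without a number hold no measured gene. *Hoxb2* to *Hoxb7* form a run at 12, cluster C reaches at most 7, and no gene of groups 1, 10, 11 or 12 reaches 12.

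By paralog group, every gene measured in group 2 (*Hoxa2* and *Hoxb2*) and in group 7 (*Hoxa7* and *Hoxb7*) was detected on all arrays. Group 4 had 2 of 4 such genes and group 5 had 2 of 3. Groups 3, 6, 8, 9 and 13 had 1 each, *Hoxb3*, *Hoxb6*, *Hoxd8*, *Hoxd9* and *Hoxa13*, and groups 1, 10, 11 and 12 had 0. *Hoxa13*, which patterns the digits, the hindgut and the urogenital tract, was the one detected gene that stood apart from the others in number. Its detection rested on 1 of 3 probes, ILMN_3087004, with normalized log2 signals between 5.01 and 5.92. Its probe ILMN_3015589 was detected on 2 KO and 0 WT arrays and its probe ILMN_1237317 on 0 of 12.

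A gene listed as not detected was not above the negative controls with the probe on this array, which does not show that it was absent. Of the 57 Hox probes, 28 were detected on 0 arrays, with normalized log2 signals between 1.02 and 3.60. Probes of the same gene also differed. *Hoxb3* had 1 probe detected on all 12 arrays and 3 others detected on 10, 4 and 4, and *Hoxd9* had 1 on 12 and 1 on 10.

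KO and WT lungs were then compared with limma over all genes and over all probes. A gene or probe was called at a Benjamini-Hochberg adjusted p under 0.05. No Hox gene and no Hox probe passed, 0 of 38 and 0 of 57. Of all genes, 38 of 19057 passed, which is 0.199%, and of all probes 67 of 45281, which is 0.148%. Without the library labelled KO 157, these shares were 0.115% and 0.0552%, and again 0 Hox genes and 0 Hox probes passed. At an unadjusted p under 0.05 in the limma fit, 5 Hox genes were lower in KO lungs (*Hoxa2*, *Hoxa5*, *Hoxb2*, *Hoxb4* and *Hoxb5*) and 0 were higher, where 7.44% of all genes were lower and 6.22% higher. All 5 were among the 13 genes detected on every array, and of all genes so detected 9.99% were lower and 7.68% higher. Without the library labelled KO 157, 3 Hox genes were lower at this p (*Hoxa5*, *Hoxb4* and *Hoxb5*) and 0 higher, beside 6.53% lower and 5.48% higher of all genes, and 8.49% and 6.13% of those detected on every array.

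*Hoxb4*, a group 4 gene known for its part in the neck vertebrae and for expanding blood stem cells, had the smallest p of the members. Its probe ILMN_1241077 gave normalized log2 signals of 8.45, 8.39, 8.70, 8.57, 8.36 and 8.81 on the KO arrays 157, 186, 192, 235, 237 and 238. On the WT arrays 142, 177, 179, 182, 187 and 188 it gave 8.89, 8.91, 8.93, 9.18, 9.07 and 9.07. All 6 KO values lay below all 6 WT values. The bead signals before normalization were 387.1 to 477.3 in KO and 485.2 to 805.5 in WT lungs. These also carry the brightness of each array, whose medians were 99.2 to 114.7 in KO and 97.0 to 121.5 in WT lungs. How many of all probes had bead signals that did not overlap was not counted. The means were 8.55 ± 0.18 and 9.01 ± 0.11 (SD, n = 6 each), a log2 difference of −0.46 (SE 0.10, 95% interval −0.67 to −0.25), or 1.38-fold. The adjusted p from limma was 0.0797, and it was 0.128 at a difference of −0.44 without the library labelled KO 157. *Hoxb4* passed without KO 192 (adjusted p = 0.0385), with array weights (0.0454), with dim probes left out at a detection p of 0.01 or 0.05 (0.0451 and 0.0490), and with the authors' processed values (0.0428). It did not pass in 20 of the 25 settings tried beside the main fit, among them limma without a trend (0.173) and median scaling (0.117).

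The paralog group 5 genes included the other members with the smallest p-values. *Hoxa5* (ILMN_1217978) gave 11.86, 12.19, 11.25, 11.84, 11.60 and 11.96 on the KO arrays and 12.04, 12.43, 12.12, 12.33, 12.15 and 12.70 on the WT arrays, in the same order as above. KO 186 alone lay within the WT range, and KO 192 was the lowest. The means were 11.78 ± 0.32 and 12.30 ± 0.24, a log2 difference of −0.51 (SE 0.14, 95% interval −0.81 to −0.21), or 1.43-fold, with an adjusted p from limma of 0.123. Without the library labelled KO 157 the difference was −0.53 and the adjusted p 0.162. Without KO 192 they were −0.41 and 0.113.

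*Hoxb5*, which takes part in airway branching and in the enteric nervous system, gave 10.56, 10.44, 10.52, 10.56, 10.31 and 10.14 on the KO arrays (ILMN_1242977). On the WT arrays it gave 10.59, 10.70, 10.70, 10.66, 10.59 and 10.73. The highest KO lung lay just below the lowest WT lung, so the groups did not overlap. The difference was −0.24 (SE 0.08), or 1.18-fold, between means of 10.42 ± 0.17 and 10.66 ± 0.06, with an adjusted p from limma of 0.222, and it was −0.26 (adjusted p = 0.216) without the library labelled KO 157. *Hoxb4* and *Hoxb5* were thus the 2 members whose groups did not overlap with KO lower, where 0.939% of all genes and 1.44% of those detected on every array did the same. Among probes detected on every array this share was 1.61%, and 1.97% when the library labelled KO 157 was set aside. The remaining group 5 gene, *Hoxc5*, was detected on 0 of 12 arrays, with values of 1.51 to 3.12 in KO and 1.15 to 2.27 in WT lungs, which overlapped.

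**Figure D2:**
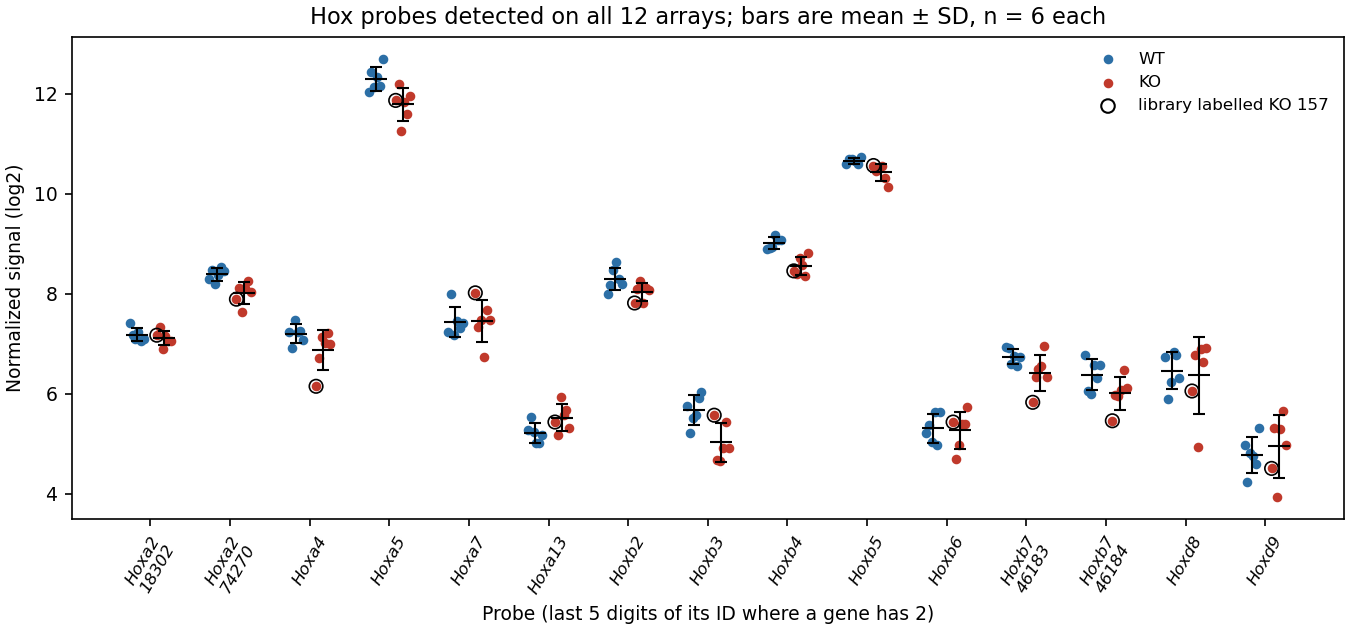
Normalized log2 signal of the 15 Hox probes detected on all 12 arrays, 1 point per lung, with black bars for the mean ± SD of 6 KO and of 6 WT lungs. The KO and WT points of *Hoxb4* and *Hoxb5* do not overlap, those of *Hoxa5* meet only through 1 KO lung, and no probe passed the adjusted threshold.

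The values of *Hoxa2* and *Hoxb3*, hindbrain genes of groups 2 and 3, depended on the probe. *Hoxa2*, which specifies the second pharyngeal arch, had a pair of probes, both detected on all arrays. ILMN_2874270 gave 7.89, 8.11, 7.64, 8.12, 8.26 and 8.03 on the KO arrays and 8.29, 8.48, 8.19, 8.38, 8.53 and 8.45 on the WT arrays. Only KO 237 reached into the WT range, and the difference was −0.38 (SE 0.12, adjusted p = 0.172 from limma). ILMN_2618302 gave 7.17, 7.34, 6.90, 7.15, 7.05 and 7.06 on the KO arrays and 7.42, 7.17, 7.10, 7.23, 7.06 and 7.09 on the WT arrays. These overlapped widely, with a difference of −0.07 (SE 0.13, adjusted p = 0.876). Merged by their median, the probes gave −0.22 (SE 0.10, adjusted p = 0.352), and −0.22 with an adjusted p of 0.450 without the library labelled KO 157.

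*Hoxb2*, a gene of the facial motor nerve territory, gave 7.81, 8.10, 8.25, 7.81, 8.12 and 8.08 on the KO arrays (ILMN_2598083). It gave 8.0, 8.17, 8.48, 8.63, 8.30 and 8.19 on the WT arrays, and 4 of the 6 KO lungs lay within the WT range. The difference was −0.26 (SE 0.12, adjusted p = 0.352 from limma), and −0.22 (adjusted p = 0.501) without the library labelled KO 157.

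*Hoxb3*, which acts with its paralogs in the hindbrain and the pharyngeal organs, gave opposite signs on different probes. The probe detected on every array, ILMN_2450689, read 5.57, 4.67, 4.66, 4.92, 5.44 and 4.91 on the KO arrays and 5.76, 5.21, 5.52, 5.58, 5.91 and 6.04 on the WT arrays. KO 157 and KO 237 lay within the WT range and the other 4 KO lungs below it. The difference was −0.64 (SE 0.23, 95% interval −1.11 to −0.17, adjusted p = 0.214 from limma), or 1.56-fold, and −0.75 (adjusted p = 0.177) without the library labelled KO 157. ILMN_3071262, detected on 6 KO and 4 WT arrays, differed by 0.64 (SE 0.37, adjusted p = 0.476), and the other 2 probes differed by −0.55 and −0.28. The median of the 4 probes hid this disagreement, with a difference of 0.01 (SE 0.24, adjusted p = 0.991).

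The other members detected on every array overlapped between the groups. *Hoxa4* (ILMN_2755860), a group 4 gene of the neck vertebrae, averaged 6.87 ± 0.39 in KO and 7.20 ± 0.19 in WT lungs, a difference of −0.33 (SE 0.17, adjusted p = 0.414 from limma). The library labelled KO 157 was its lowest, at 6.15, and the difference was −0.18 without it. *Hoxb7*, a gene of the trunk, had a pair of probes, with means of 6.41 ± 0.37 against 6.74 ± 0.16 (ILMN_2946183) and 6.01 ± 0.33 against 6.38 ± 0.31 (ILMN_2946184), so that both read lower in KO lungs by nearly the same amount. Their differences were −0.33 (SE 0.17) and −0.37 (SE 0.19), with adjusted p-values of 0.432 and 0.418 from limma. KO 157 was again the lowest library on both, and without it the differences were −0.21 and −0.26.

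*Hoxa7*, which patterns the upper trunk, averaged 7.45 ± 0.42 in KO and 7.43 ± 0.29 in WT lungs, a difference of 0.01 (95% interval −0.39 to 0.41), and −0.10 without the library labelled KO 157. *Hoxb6*, another trunk gene, averaged 5.27 ± 0.37 and 5.31 ± 0.29, a difference of −0.04 (95% interval −0.47 to 0.39), and −0.07 without that library. Neither group of lungs stood higher in these genes, and the interval of *Hoxb6*, though not that of *Hoxa7*, took in a difference as large as that of *Hoxb4*. In cluster D, *Hoxd8* averaged 6.37 ± 0.77 in KO and 6.46 ± 0.37 in WT lungs, with KO 192 at 4.94 and the other 5 KO lungs between 6.05 and 6.92. Its difference was −0.09 (SE 0.30), −0.03 without the library labelled KO 157, and 0.19 without KO 192. *Hoxd9*, a gene of the lower trunk and limbs, averaged 4.94 ± 0.63 and 4.78 ± 0.36 on its probe detected everywhere (ILMN_1216475), a difference of 0.17 (SE 0.29, adjusted p = 0.857), with KO 192 again the lowest, at 3.93. This difference was 0.25 without the library labelled KO 157 and 0.37 without KO 192. *Hoxa13* averaged 5.52 ± 0.27 in KO and 5.21 ± 0.19 in WT lungs on ILMN_3087004, a difference of 0.31 (SE 0.20, 95% interval −0.11 to 0.72, adjusted p = 0.532). It was 0.33 without the library labelled KO 157 and 0.23 without KO 192.

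**Figure D3:**
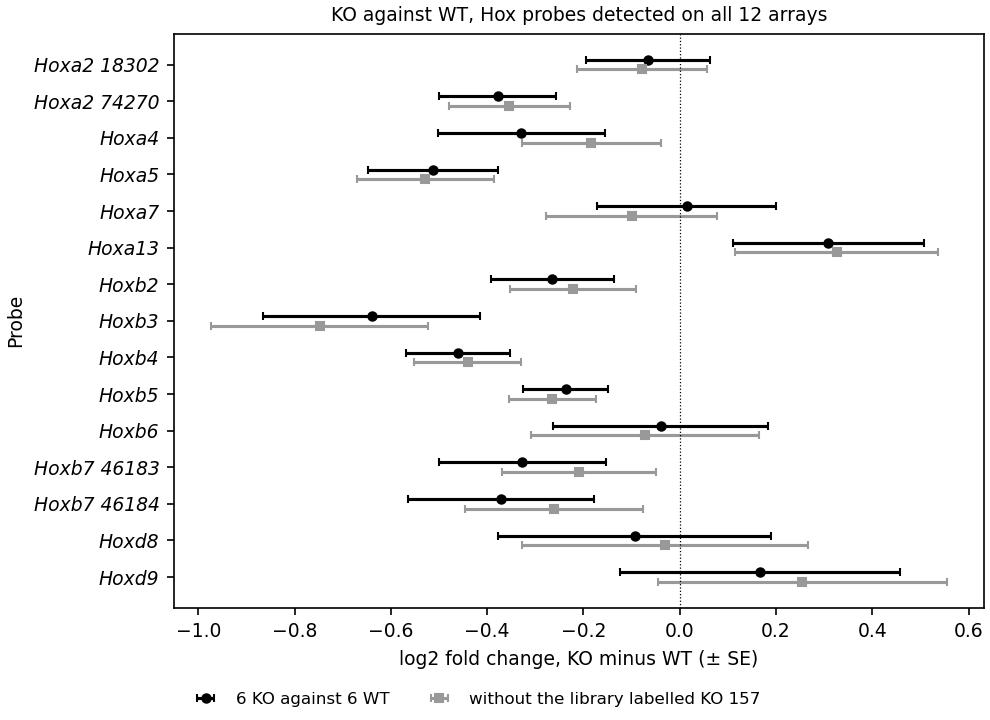
Log2 fold change of KO against WT lungs (± SE) for the 15 Hox probes detected on all 12 arrays, with all libraries (black circles) and without the library labelled KO 157 (grey squares). Of the black circles 12 lie below 0 and of the grey squares 13, and the lowest is *Hoxb3* at −0.64 and −0.75.

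Counted together, 12 of the 15 probes detected on every array had a negative difference, where 53.1% of all such probes did. With the library labelled KO 157 left out, 13 of 15 were negative, against 53.9%. At an unadjusted p under 0.05 in the limma fit, 5 of the 15 were lower (those of *Hoxa5*, *Hoxb4* and *Hoxb5*, ILMN_2874270 of *Hoxa2* and ILMN_2450689 of *Hoxb3*), and 0 were higher, where 11.2% of all such probes were lower and 9.19% higher. Without the library labelled KO 157, 5 were again lower and 0 higher, beside 9.31% and 7.58%. The median difference of the 15 was −0.26, and −0.21 without the library labelled KO 157, beside −0.02 and −0.02 over all probes detected on every array. Over the 13 merged genes, 9 were negative and the median was −0.22, where 53.9% of all such genes were negative. Without the library labelled KO 157, 10 were negative with a median of −0.18, against 54.4%. The medians over all 38 members, most of them at background on part of the arrays, were −0.04 and −0.07. By cluster, the detected genes of cluster A had a median of −0.22 with 3 of 5 negative, those of cluster B −0.25 with 5 of 6, and those of cluster D 0.03 with 1 of 2. These medians were −0.18, −0.23 and 0.04, with 4, 5 and 1 negative, when the library labelled KO 157 was set aside. Hox genes were measured on the same lungs and are not independent of each other, so these counts carry no test.

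The lungs differed among themselves. Each of the 13 genes was read here from its probes detected on all 12 arrays, by their median where there were several. The values of each lung were set against the WT mean of each of the 13 genes, and the median of these deviations was lowest in KO 192, at −0.34, with 11 of 13 genes below the WT mean. The library labelled KO 157 followed at −0.27, KO 238 at −0.20, and KO 186 and KO 235 both at −0.19. The median of KO 237, 0.01, lay among those of the WT lungs, with 6 of 13 genes below the WT mean. Its single genes varied, with deviations of −0.70 for *Hoxa5*, −0.65 for *Hoxb4* and 0.87 for *Hoxd9*. The WT medians ran from −0.14 in WT 179 to 0.06 in WT 188. WT lungs enter the mean they are set against and KO lungs do not, so the medians of KO and WT lungs are not on equal terms. The lowest value of a gene fell on a KO array for 12 of the 13 genes, and for 5 of them on KO 192 (*Hoxa2*, *Hoxa5*, *Hoxb3*, *Hoxd8* and *Hoxd9*) and for 3 on the library labelled KO 157 (*Hoxa4*, *Hoxb2* and *Hoxb7*). The highest value fell on a WT array for 8 of the 13. *Hoxb3* rested on ILMN_2450689 here, whereas the median of its 4 probes was lowest in WT 177, at 3.01. These counts were not repeated without the library labelled KO 157. The same counts over all genes detected on every array were not made, so whether they are particular to Hox genes was not tested.

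**Figure D4:**
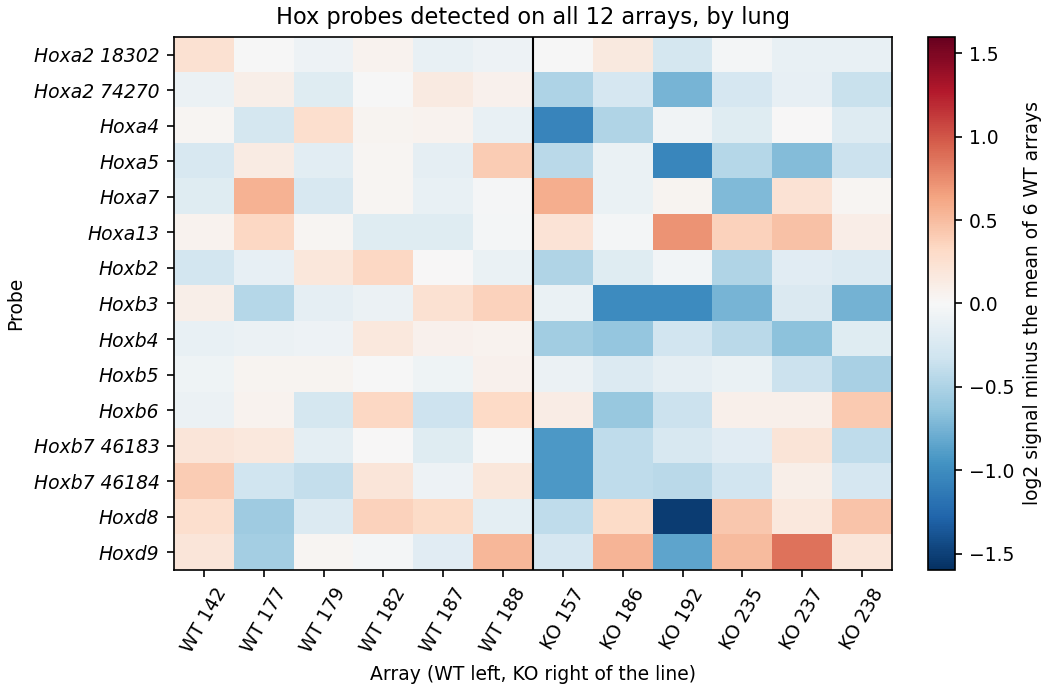
Deviation of each lung from the mean of the 6 WT lungs, on the log2 scale, for the 15 Hox probes detected on all 12 arrays (rows), with WT arrays left and KO arrays right of the line. The deepest value, −1.52, is that of *Hoxd8* in KO 192, and the highest, 0.87, is that of *Hoxd9* in KO 237.

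Liver and muscle transcripts also varied among these lungs. The summed linear signal of 6 liver markers was 180 to 6030 in KO and 248 to 861 in WT lungs, and the highest library was KO 192. *Apoa1* and *Ttr* were detected on 12 arrays, *Serpina1a* and *Afp* on 11, *Alb* on 1 and *Fgb* on 0. In the limma fit *Apoa1* differed by 1.70 and *Serpina1a* by 1.45 between KO and WT lungs (adjusted p = 0.167 and 0.248). Skeletal muscle markers were positive for 6 of 6, with a median of 1.31, or 1.90 without the library labelled KO 157. They summed to 558 to 10482 in KO and 534 to 17752 in WT lungs, and the highest library was WT 187. Their part in the Hox values of single lungs was not tested.

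Among members detected on some arrays only, *Hoxc6*, a gene of the thorax and mammary bud, was detected on 5 KO and 2 WT arrays. It gave 4.78, 4.79, 3.76, 4.23, 3.10 and 4.69 on the KO arrays and 3.79, 3.51, 2.08, 3.49, 4.98 and 3.46 on the WT arrays. The highest value was that of WT 187, so the groups overlapped throughout, and the difference was 0.67 (SE 0.41, adjusted p = 0.504 from limma), or 0.56 without the library labelled KO 157. *Hoxd10*, a gene of the lumbar spinal cord, was detected on 2 KO and 4 WT arrays and averaged 3.50 ± 0.84 and 3.47 ± 0.90. The other members of this kind, *Hoxa3*, *Hoxc4*, *Hoxc10*, *Hoxc13*, *Hoxd4* and *Hoxd11*, were detected on 1 to 4 arrays, a level that leaves a fold change without meaning.

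HOX proteins bind DNA with cofactors of the PBX and MEIS families. Of 10 such genes listed, 8 were measured, 7 were detected on all arrays and 0 passed limma's threshold, with a median difference of −0.02. *Pbx2* differed by 0.27 (SE 0.15, adjusted p = 0.441) and *Meis1* by −0.26 (adjusted p = 0.664). The chromatin regulators that hold Hox clusters silent or active gave similar counts. Of 21 Polycomb genes measured, 0 passed and the median was 0.01, with 0 lower and 3 higher at an unadjusted p under 0.05, where 9.99% and 7.68% of all genes detected on every array were. The 3 were *Ezh2*, the methyltransferase of the silencing mark, at 0.69 (SE 0.19, adjusted p = 0.123), *Ring1* at 0.29 (adjusted p = 0.258) and *Cbx7* at 0.70 (adjusted p = 0.295). Of 13 Trithorax and demethylase genes, 0 passed and the median was 0.09, or 0.03 without the library labelled KO 157, with *Brpf1* at 0.40 (SE 0.12, adjusted p = 0.149) and *Kmt2a*, which keeps Hox genes active, at 0.39 (adjusted p = 0.303). *Kmt2a* was at 0.25 without that library.

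Retinoic acid switches on the 3′ Hox genes in the embryo. Of 17 genes of its synthesis, breakdown and receptors, 0 passed and the median was 0.10. *Aldh1a2*, which makes retinoic acid in the embryo, differed by 0.63 (SE 0.28, adjusted p = 0.329), and *Crabp2* was detected on only 2 arrays. Of 9 other upstream regulators, 0 passed, and *Cdx2*, *Cdx4* and *Gdf11*, which act on posterior Hox genes, were detected on 0 arrays. *Zbtb16* gave the largest difference of these, 1.37 (SE 0.55, adjusted p = 0.288).

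Genes listed for the group 5 axis of lung mesenchyme, with *Nkx2-1* of the epithelium among them, gave 0 of 10 past the threshold. *Wnt2*, a mesenchymal ligand that takes part in lung development, differed by −0.63 (SE 0.22, adjusted p = 0.216), and by −0.48 (adjusted p = 0.354) without the library labelled KO 157. *Nkx2-1*, the transcription factor of lung epithelium, differed by −0.32 (adjusted p = 0.329), *Bmp4* by −0.24 (adjusted p = 0.613) and *Tbx4* by −0.02 (adjusted p = 0.953). The study reported *Bmp4* as lower in KO lungs by its own test of these arrays, whereas it was not called here. The *Bmp4* value here is that of the merged fit, and values of its single probes are not given. The 4 genes named were the 4 negative ones of this list. The other 6 were positive, with *Axin2* at 0.15 (adjusted p = 0.638 from limma), and the list's median was 0.05. Of 24 genes that flank the Hox clusters, 0 passed and the median was 0.02.

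Homeobox genes outside the Hox clusters held the only calls among the 8 lists and their 115 genes. *Meox1* and *Meox2*, mesodermal homeobox genes, fell in KO lungs by 1.35 and by 1.02 on the log2 scale (SE 0.19 and 0.19, adjusted p = 0.0203 and 0.0477 from limma). Without the library labelled KO 157, *Meox1* passed at −1.31 (adjusted p = 0.0320) and *Meox2* did not, at −0.89 (adjusted p = 0.0729). Neither passed without KO 238, WT 179, WT 182 or WT 187, nor with the methods' t-test or limma without a trend. Without KO 186, KO 235, WT 142, WT 177 or WT 188, 1 gene of the lists passed, lower in KO lungs. Only the number of calls was kept for these settings, so that gene is not named. The median over the 15 measured genes of this list was −0.15, with 2 lower and 0 higher past the threshold.

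Hox transcripts of the lung are known mainly from its mesenchyme, so markers of the cell types were read beside them. None of 103 markers in 18 lists passed limma's threshold, and at an unadjusted p under 0.05 there were 6 lower and 13 higher, where 7.44% of all genes were lower and 6.22% higher. Fibroblast markers, 8 of 8 detected on all arrays, were negative for 7 with a median of −0.20, and −0.11 without the library labelled KO 157. Their summed linear signal was 8627 to 10991 in KO and 9875 to 12121 in WT lungs. Smooth muscle markers were negative for 8 of 8, with 7 detected on all arrays and a median of −0.40, or −0.25 without the library labelled KO 157, and summed to 2431 to 8984 in KO and 5268 to 11218 in WT lungs. Pericyte markers, also of the mesenchyme, were positive for 5 of 6, with a median of 0.18, or 0.18 without the library labelled KO 157, and sums of 871 to 1282 and 745 to 1004. Endothelial markers were positive for 5 of 7, with a median of 0.32, or 0.37 without that library, and sums of 13179 to 18664 and 12037 to 15897. Mesothelial markers were positive for 5 of 5, with a median of 0.41, or 0.25 without that library, and sums of 3186 to 7177 and 3406 to 5467. These sums overlapped between KO and WT lungs in every list named here, and their part in the Hox differences was not tested.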

How the data were processed

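Lung RNA of 6 newborn mice labelled cavin-1 KO and 6 WT mice was measured on Illumina MouseWG-6 v2.0 arrays. The deposited intensity values were mean bead signals taken from GenomeStudio before any background subtraction or normalization, each with a detection p-value that the authors deposited beside it. Array medians were 97.0 to 121.5, and 45.3% to 49.1% of probes and 17 to 23 Hox probes were detected per array. A second table of intensities, background-subtracted and quantile-normalized by the authors, served as an alternative after a floor of 16.

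In R 4.3.3, RMA's normal-exponential background model and quantile normalization were applied, and log2 was taken. Of 45281 probes, 34885 had 1 gene in the platform annotation, 18 had several and were left out, and 10378 had none. Genes with several probes took the probes' median, and all probes were also fitted singly. Limma 3.58.1 with a mean-variance trend compared the groups, two-sided, with Benjamini-Hochberg adjustment over all features. The code was tested on simulated data. No term for the chip was fitted, since the labels do not name it. Although the study describes pairs of littermates, the labels pair no mice, so the fits are unpaired. The p-values set the KO and WT difference against the spread between mice within groups, as limma estimates it. Any differences between litters or chips stay in the fits. Precision is limited by the number of arrays.

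The Hox genes, the lists and the markers were chosen with earlier results of these data known. Values per array were given for *Cavin1*, for members detected on all arrays with an unadjusted p under 0.05 in either fit, with or without the library labelled KO 157, and for paralog group 5. The values of *Hoxc6* and the single-array values of other members were added after their values were seen. From each list up to 4 genes with the smallest p were eligible, and *Meis1*, *Bmp4*, *Tbx4* and undetected genes were named for their role. For a gene with 1 probe, errors and p-values are those of the merged fit, and for a gene with several, values given with a probe are those of the probe fit. Promoter windows were RefSeq's (GRCm38.p6). All 38 members matched RefSeq gene IDs. Alternatives were other background corrections, normalizations, detection filters, probe choices and tests, array weights, Y-linked expression as a covariate, and each array left out. Plots were drawn with matplotlib 3.10.9.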

Additional observations from a re-analysis of the deposited data

Results flagged for a closer look

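1 of 30 groups examined, the KO and the WT values of each Hox probe detected on all 12 arrays, held a lung far from the others. *Hoxa7* (ILMN_2621038) was 7.99 in WT 177, whereas the other 5 WT lungs lay between 7.17 and 7.46, and the gap made up 0.650 of the range, above Dixon's critical value for a group of this size. Dixon's test at the 95% level flags some groups by chance, and 1 of 30 is no more than that level allows.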

How the results depend on the processing

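No paired analysis was possible because the KO and WT samples share no replicate number. The count of all genes past the threshold, 38, became 93 with array weights, 106 and 88 when only probes detected at p under 0.01 or 0.05 on at least 6 arrays were kept, 74 with the authors' processed values, 12 with the Y-linked covariate, 8 with SAM at q = 0, 6 with median scaling, 1 with limma without a trend and 0 with the methods' t-test. Leaving out 1 array gave 0 to 224. The highest count was that without KO 192, and leaving out KO 238 or 1 of the WT lungs 179, 182 and 187 gave the lowest. The Hox genes past the threshold went from 0 to 1, *Hoxb4*, with array weights, both detection filters, the authors' values and without KO 192 (0 to 1 over the arrays left out), and the Hox probes from 0 to 1 under the same settings other than the authors' values. The adjusted p of *Hoxb4* ran from 0.0385 to 0.181 over 25 other settings, and its difference from −0.51 to −0.37. That of *Hoxa5* ran from 0.0755 to 0.250 and that of *Hoxb5* from 0.126 to 0.430. The median over Hox genes moved from −0.04 to −0.24 with the 0.01 filter, which keeps fewer genes, and ran from −0.09 to 0.01 over the arrays left out. The 13 genes detected on all arrays became 8 at a detection p of 0.001. The 2 calls in the lists became 1 with median scaling, neqc, no background correction, SAM or the Y-linked covariate. They became 0 with limma without a trend or the methods' t-test, and were 0 to 2 over the arrays left out. With the brightest probe, the 0.01 filter or each probe singly the calls were 3, all lower. With the authors' values they were 2, but 1 was lower and 1 higher. All these settings but that without KO 157 were added for the lists after seeing the data. Small differences changed sign. *Hoxa7* became −0.0064 with array weights, −0.0012 with median scaling, −0.023 with the Y-linked covariate and −0.10 to 0.16 over the arrays left out. *Hoxb3* became −0.017 with array weights, −0.016 with median scaling, −0.0021 with the 0.05 filter, and −0.64 with the 0.01 filter, the brightest probe or each probe singly, and −0.18 to 0.10 over the arrays left out. *Hoxb6* ran from −0.13 to 0.074 and *Hoxd8* from −0.21 to 0.19. The cause of these changes was not tested.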

Other observations

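*Hottip* and *Hoxd3os1*, transcripts annotated within the Hox clusters that are no coding members, were at background. Others of this kind were not searched for. The probe of *Hottip*, the long RNA at the 5′ end of cluster A, and both probes of *Hoxd3os1* were detected on 0 of 12 arrays. The *Hottip* probe lay between 1.70 and 3.14 in KO and between 1.28 and 2.12 in WT lungs (log2), and the groups overlapped.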
